A study of Homo sapiens with 11 samples.

Results

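The NRF2 antioxidant and detoxification genes examined here were 34 genes chosen by name for their known place in the pathway. They comprised the transcription factor NRF2 (gene NFE2L2), its inhibitor KEAP1 and a set of enzymes, carriers and iron-storage proteins known as NRF2 targets. Of 20249 genes with a named probe on the arrays, 32 were members, and AKR1C2 and TRIM16L had no named probe. RNA was measured on 11 one-colour Agilent arrays from the human lung adenocarcinoma cell lines A549, which carries a mutated KEAP1, and HCC827. The cells had been infected with a retrovirus made from the empty pMXs-Neo vector (mock) or from the same vector carrying wild-type TRIM58 with a FLAG tag (TRIM58-WT), and all groups, controls included, had been selected with G418. TRIM58 is a ubiquitin ligase of the tripartite motif family, and the study asked what its stable expression did in these cells.

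There were 4 arrays of A549 mock, 3 of A549 TRIM58-WT, 2 of HCC827 mock and 2 of HCC827 TRIM58-WT. A549 mock arrays 1-1 and 1-2 came from the same control cells and were averaged to 1 replicate, which left 3, 3, 2 and 2 replicates. The study describes isolated clones of A549, so a group difference in that line can also hold differences between clones, and calls the HCC827 transfectants crude. A549 TRIM58-WT arrays 2 and 3 are labelled as separate cells, yet over all probes their values differed with an SD of 0.34 on the log2 scale, against 0.35 for mock arrays 1-1 and 1-2, 0.94 for TRIM58-WT arrays 1 and 2, and 0.91 for mock arrays 2 and 3. The TRIM58 probe rose clear of background on A549 mock replicate 3 alone, with a log2 level of -0.71 there and of -4.63 or lower on the other 10 arrays, those labelled TRIM58-WT included. Whether that probe can read the introduced coding sequence was not tested, so the groups are called by their labels throughout.

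NRF2 is a transcription factor that pairs with small MAF proteins and binds the antioxidant response element in the control regions of its targets. In unstressed cells KEAP1 holds NRF2 for ubiquitination and breakdown, and loss of KEAP1 function in lung adenocarcinoma lets NRF2 accumulate. Its targets make and use glutathione, supply NADPH, reduce reactive carbonyls and quinones, repair oxidised thiols, break down haem and store iron, and conjugate and export toxic compounds.

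The binding motif can be read in the promoters of some members. Promoter windows of 250 bases before to 50 bases after the start site were taken from RefSeq (GRCh38.p14), which held 32 windows for 25 of the 34 members. The core of the antioxidant response element, TGACNNNGC on either strand, was found in 9 of these 32 windows (28.1%), against 13.3% of all 35116 promoter windows of the same length. The members with a match were CBR1, EPHX1, GCLM, GPX2, KEAP1, ME1, PGD and TXNRD1. The AP-1 motif, TGAGTCA on either strand, was found in 2 of the 32 windows (6.25%), those of ME1 and OSGIN1, against 4.95% of all windows, and in ME1 it lies inside the match to the antioxidant response element. A match is only a description of these letters, and no window was given for ABCC3, AKR1B10, CBR3, FTH1, GSR, HMOX1, PRDX1, SLC6A6 or TRIM16L.

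Matches from 5 members are printed so that their letters can be compared, each read 5′ to 3′ on the gene's own strand with the match in capitals. A match on the opposite strand is printed as it reads on the gene's strand, where it begins with GC and ends with GTCA. PGD and GCLM supply NADPH and glutathione, ME1 holds the overlap with AP-1, and KEAP1 is the inhibitor of the pathway.
PGD (chr1:10398843-10398891, plus strand, match starting 201 bases before the start site): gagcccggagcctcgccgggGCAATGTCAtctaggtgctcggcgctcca
GCLM (chr1:93909436-93909484, minus strand, 34 bases before): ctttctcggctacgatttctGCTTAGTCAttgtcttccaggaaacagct
ME1 (chr6:83431160-83431208, minus strand, 137 bases before): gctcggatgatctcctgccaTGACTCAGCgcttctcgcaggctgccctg
KEAP1 (chr19:10502774-10502822, minus strand, 31 bases before): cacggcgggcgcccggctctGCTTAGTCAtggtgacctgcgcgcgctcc
GPX2 is shown with all 250 bases before its start site because it had the widest change with TRIM58-WT in A549 of all members tested, and its single match starts 122 bases before the start.
GPX2 (chr14:64942746-64942995, minus strand): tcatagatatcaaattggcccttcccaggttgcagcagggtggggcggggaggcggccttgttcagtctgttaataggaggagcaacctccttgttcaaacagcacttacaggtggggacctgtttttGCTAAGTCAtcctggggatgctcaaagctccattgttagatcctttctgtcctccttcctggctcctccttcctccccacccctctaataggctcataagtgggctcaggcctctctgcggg

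**Figure D1:**
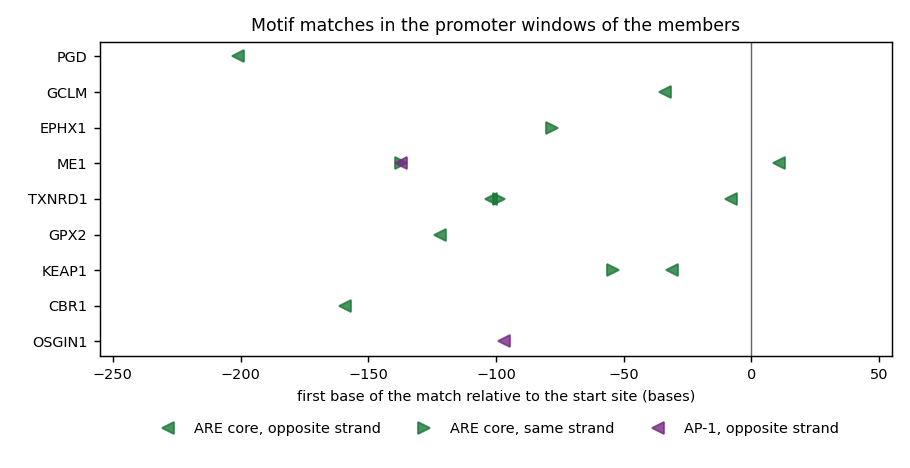
Matches to the core of the antioxidant response element (ARE) and to the AP-1 motif in the promoter windows of the members. The horizontal axis gives the first base of the match in bases from the start site, each row is a gene, and the direction of a marker shows the strand. GPX2, KEAP1 and GCLM have their matches within 122 bases of the start site, and PGD has its match 201 bases before it.

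Levels are log2 signals from which the array's 75th percentile was subtracted, so 0 is that percentile and 1 unit is a doubling. A probe was tested where all arrays of at least 1 compared group showed it well above background, as flagged by the scanner software. A member was called at a limma p, adjusted over all probes tested, under 0.05 with at least a 2-fold difference. A gene is represented by its brightest probe, and levels of different genes are not compared, since probes differ in efficiency. At least 40.1% of probes were well above background on each array, and the 75th percentile of the signal lay between 56.6 and 125. The labels name separate cells within each group, so the p-values measure the spread between those samples.

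Of the regulators, NFE2L2 could not be measured and KEAP1 was not called in any comparison. The NFE2L2 probe was well above background on 0 of the 11 arrays, so NRF2's own transcript was not tested. KEAP1 was well above background on all 11. Its levels were 2.58, 2.47, 2.74 and 2.82 on A549 mock arrays 1-1, 1-2, 2 and 3, 2.50, 2.79 and 2.85 in A549 TRIM58-WT, 2.80 and 2.67 in HCC827 mock, and 2.79 and 2.42 in HCC827 TRIM58-WT. The 4 groups overlapped. The KEAP1 difference between A549 mock and HCC827 mock was -0.04 (95% interval -0.48 to 0.39, SE 0.19, limma, adjusted p = 0.871), that between the TRIM58-WT groups 0.11 (SE 0.19, adjusted p = 0.668), that with TRIM58-WT in A549 0.02 (SE 0.18, adjusted p = 0.966) and that in HCC827 -0.13 (SE 0.18, adjusted p = 0.693). Array levels read RNA and do not show what a mutated KEAP1 protein does.

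**Figure D2:**
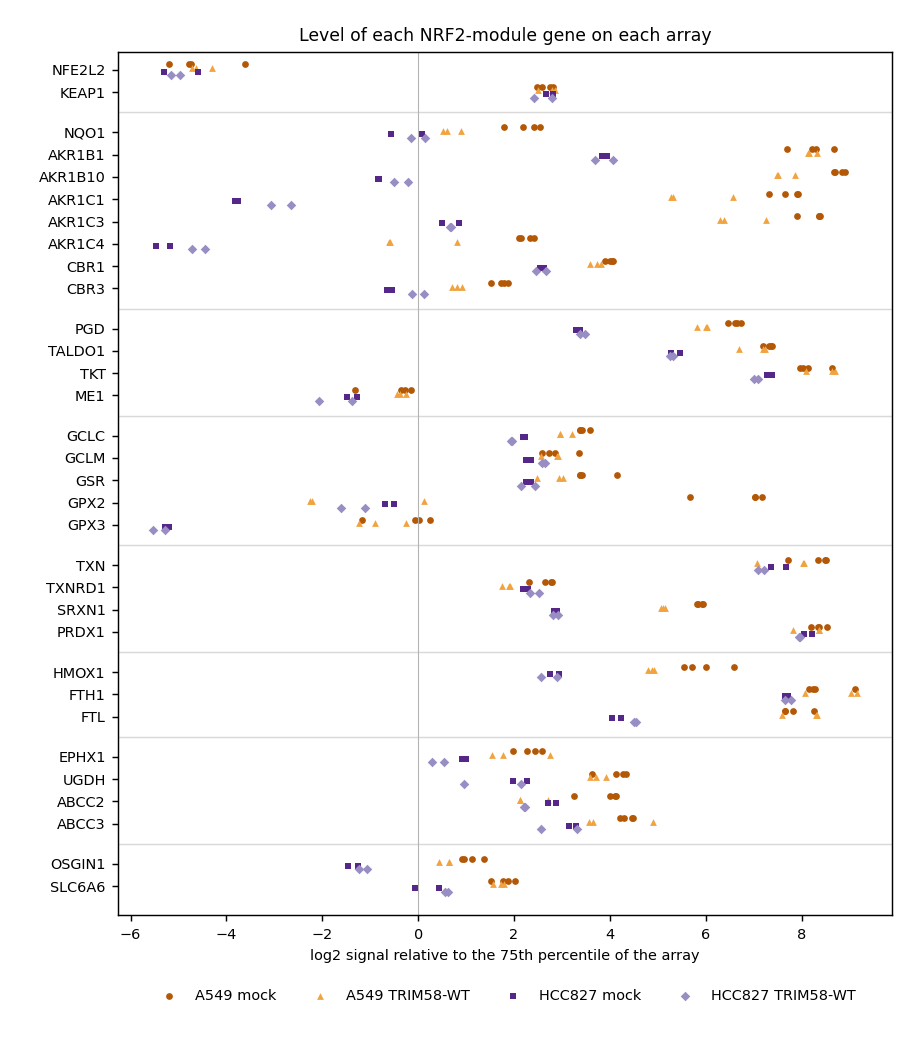
Level of each of the 32 members with a named probe on each of the 11 arrays, grouped by role from regulators at the top to other targets at the bottom. The horizontal axis is the log2 signal relative to the 75th percentile of the array, and each marker is 1 array, coloured by group. The A549 markers of AKR1B10, AKR1C1, AKR1C3 and AKR1C4 lie far to the right of the HCC827 markers, and the KEAP1 markers lie together.

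The first comparison asked how the module stood in the KEAP1-mutant line against the other line without TRIM58-WT. In mock cells 21 of the 31 members tested were called, all of them higher in A549. Over all genes tested 31.9% were called in either direction and 15.4% called higher. AKR1C1, AKR1C4 and GPX3, counted among the 21, passed the filter on dim probes through A549 alone. With probes required to be well above background on every array compared, 18 of 27 were called, all higher, against 24.6% of all genes. The median difference was then 1.57. Of the 31, 30 had a difference above 0, the exception being KEAP1, and the median difference was 1.97, against -0.06 over all genes tested. The A549 mock arrays lay wholly above the HCC827 mock arrays for 29 of the 31, against 33.9% of all genes, and wholly below for 0, against 38.3%. All arrays of this comparison except A549 mock 1-2 and 3 were on slide 1, and on slide 1 alone the differences of AKR1B10, AKR1C1 and AKR1C3 were 9.62, 11.41 and 7.45.

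The carbonyl-reducing enzymes stood furthest apart between the lines, and all 8 of those measured were called higher in A549 mock. AKR1B10 and AKR1B1, aldo-keto reductases encoded on chromosome 7, reduce aldehydes. AKR1B10 read 8.90, 8.69, 8.68 and 8.85 on A549 mock arrays 1-1, 1-2, 2 and 3, and -0.81 and -0.84 in HCC827 mock. The arrays of the lines were far apart and those within a line close together. The difference was 9.60, or 777-fold (SE 0.18, limma, adjusted p = 2.78e-08). AKR1B1 read 8.31, 8.22, 7.69 and 8.67 on the A549 mock arrays and 3.83 and 3.93 in HCC827 mock, with no overlap, a difference of 4.33 (SE 0.27, limma, adjusted p = 6.61e-06).

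The AKR1C enzymes, hydroxysteroid and carbonyl reductases encoded together on chromosome 10, are close in sequence, and how far each probe reads its relatives was not tested. AKR1C1 read 7.32, 7.64, 7.91 and 7.91 on the A549 mock arrays and -3.83 and -3.76 in HCC827 mock, where it was not well above background. It was therefore at least 2049.7-fold higher in A549, a bound set against the lowest signal well above background on each HCC827 array, with a measured difference of 11.56 (SE 0.38, limma, adjusted p = 2.09e-07). AKR1C3 read 7.90, 8.37, 8.36 and 8.39 in A549 mock against 0.50 and 0.86 in HCC827 mock. These groups did not overlap, and the difference was 7.61 (SE 0.29, adjusted p = 4.04e-07). AKR1C4 was not well above background in HCC827 mock either and was at least 44.8-fold higher in A549, with a measured difference of 7.58 (SE 0.40, adjusted p = 2.52e-06). A dimmer AKR1C4 probe, well above background on 3 of the 4 A549 mock arrays, was not tested and gave a bound of 1.98-fold. NQO1, the quinone reductase often read as a sign of NRF2 activity, read 2.19, 2.54, 2.42 and 1.80 in A549 mock and -0.57 and 0.07 in HCC827 mock, with no overlap and a difference of 2.45 (adjusted p = 0.000158). The carbonyl reductases CBR3 and CBR1 differed by 2.31 and 1.41.

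Among the genes that supply NADPH, 2 of 4 were called. PGD, a dehydrogenase of the pentose phosphate pathway, read 6.74, 6.61, 6.66 and 6.46 on the A549 mock arrays and 3.30 and 3.38 in HCC827 mock, with no overlap and a difference of 3.26 (SE 0.15, limma, adjusted p = 1.17e-06). TALDO1, the transaldolase of the same pathway, differed by 1.97. TKT (transketolase, 0.91, adjusted p = 0.0200) was under the 2-fold limit, and ME1 (malic enzyme, 0.78, adjusted p = 0.102) did not pass the test.

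Of the glutathione genes 4 of 5 were called. GPX2, a glutathione peroxidase of epithelial cells, read 7.03, 7.03, 7.16 and 5.68 on the A549 mock arrays and -0.69 and -0.51 in HCC827 mock. Mock replicate 3 was the lowest of the A549 arrays, yet it lay far above the other line, and the difference was 7.22 (SE 0.73, limma, adjusted p = 9.61e-05). GPX3, a secreted glutathione peroxidase, was not well above background in HCC827 and was at least 7.54-fold higher in A549 mock, with a measured difference of 4.92 (SE 0.43, adjusted p = 3.97e-05). GCLC, the catalytic subunit of the enzyme that starts glutathione synthesis, differed by 1.25, and GSR, the reductase that recycles glutathione, by 1.34. GCLM, the modifier subunit partnering GCLC, differed by 0.65 (adjusted p = 0.0493), under 2-fold.

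In the thioredoxin system 1 of 4 genes was called. SRXN1, which restores oxidised peroxiredoxins, read between 5.82 and 5.94 on the A549 mock arrays and 2.89 and 2.84 in HCC827 mock, a difference of 3.01 (adjusted p = 9.63e-07). TXN (thioredoxin), TXNRD1 (thioredoxin reductase) and PRDX1 (a peroxiredoxin) differed by 0.82, 0.36 and 0.24, with adjusted p of 0.0660, 0.148 and 0.363. The difference of PRDX1 had a 95% interval of -0.22 to 0.71.

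For haem and iron, 2 of 3 genes were called. HMOX1, which breaks down haem, read 5.72, 5.54, 6.004 and 6.59 on the A549 mock arrays and 2.93 and 2.76 in HCC827 mock, with no overlap and a difference of 3.23 (SE 0.27, limma, adjusted p = 3.07e-05). FTL, the ferritin light chain, read 7.82, 7.65, 7.66 and 8.26 against 4.24 and 4.04, a difference of 3.75 (SE 0.27, adjusted p = 1.37e-05). FTH1, the ferritin heavy chain, differed by 0.85 (adjusted p = 0.0970) and was not called. Both ferritin genes have processed pseudogene copies, and how far their probes read those was not tested.

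In the remaining roles 4 of 6 genes were called. UGDH, which makes the sugar donor for glucuronidation, differed by 2.01, and the epoxide hydrolase EPHX1 by 1.35. The EPHX1 call (adjusted p = 0.0135) was lost without HCC827 mock replicate 1 or 2 and with normexp background correction, and its adjusted p reached 0.0778 over all alternatives. OSGIN1, an oxidative stress-induced growth inhibitor, and the taurine carrier SLC6A6 differed by 2.49 and 1.57. The export pumps ABCC2 (0.99, adjusted p = 0.0236) and ABCC3 (1.11, adjusted p = 0.0535) each missed 1 of the limits.

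The same contrast between the lines was then read in the TRIM58-WT groups, which share no array with the mock groups, although one limma fit over all groups gave both. Of the 31 members tested 20 were called, all higher in A549, against 33.7% of all genes called in either direction and 16.2% called higher. AKR1C1, AKR1C4 and GPX3 again passed the filter through A549 alone. With every array compared required to be well above background, 18 of 27 were called, all higher, against 26.3% of all genes. The median difference was 1.36, against -0.05 over all genes tested. For 24 members the A549 arrays lay wholly above the HCC827 arrays (32.5% of all genes), and for 1, TXNRD1, wholly below (37.1%). The members called in both contrasts numbered 17, which is 81.0% of those called in mock and 85.0% of those called in TRIM58-WT. The matching share over all genes was not counted, so this overlap is not read as a trait of the members. CBR3, GPX2, GSR and NQO1 were called in mock alone, and FTH1, ME1 and TKT in TRIM58-WT alone.

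With TRIM58-WT the aldo-keto reductases still stood far apart between the lines. AKR1B10 read 7.86, 7.51 and 7.48 in A549 TRIM58-WT and -0.50 and -0.21 in HCC827 TRIM58-WT, a difference of 7.97 (SE 0.18, limma, adjusted p = 4.63e-08). AKR1C1 differed by 8.59 (SE 0.38, adjusted p = 8.91e-07), being well above background on 1 of the 2 HCC827 TRIM58-WT arrays, AKR1C3 by 5.98 (SE 0.29, adjusted p = 1.43e-06) and AKR1B1 by 4.32 (SE 0.27, adjusted p = 6.64e-06). AKR1C4, not well above background in HCC827, was at least 9.43-fold higher, with a measured difference of 4.45 (SE 0.40, adjusted p = 5.38e-05), and GPX3 at least 5.94-fold, with a measured 4.60 (SE 0.43, adjusted p = 6e-05). None of these groups overlapped. FTL (3.56, SE 0.27, adjusted p = 1.98e-05), PGD (2.52, SE 0.15, adjusted p = 4.94e-06), SRXN1 (2.25, SE 0.14, adjusted p = 4.82e-06) and UGDH (2.19, SE 0.32, adjusted p = 0.000853) were also higher in A549.

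Some members called between the mock groups were not called between the TRIM58-WT groups. GPX2 read 0.12, -2.22 and -2.25 in A549 TRIM58-WT and -1.62 and -1.10 in HCC827 TRIM58-WT, so the lines overlapped, and the difference was -0.09 (95% interval -1.77 to 1.58, limma, adjusted p = 0.928). On slide 1 alone, which held both HCC827 TRIM58-WT arrays but only replicate 1 of A549 TRIM58-WT, GPX2 was higher in A549 by 1.48. With slide as a block the difference was 0.83 (limma, adjusted p = 0.243), in a fit counting A549 mock arrays 1-1 and 1-2 separately. The direction of the GPX2 difference was therefore not stable. NQO1 read 0.90, 0.52 and 0.61 in A549 TRIM58-WT and -0.15 and 0.15 in HCC827 TRIM58-WT. Its arrays did not overlap, and the difference was 0.68 (95% interval 0.06 to 1.30, adjusted p = 0.0708). CBR3 gave 0.82 (adjusted p = 0.00496) at under 2-fold. GSR gave 0.52 (adjusted p = 0.152) at its brightest probe and -0.12 (adjusted p = 0.694) at a dimmer one. The export pump ABCC2 gave 0.09 (-0.58 to 0.75, adjusted p = 0.823). TXNRD1 was lower in A549 by a difference of -0.57 (adjusted p = 0.0343), under 2-fold. The call of FTH1 (1.03, adjusted p = 0.0499) stood in 7 of 25 settings.

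**Figure D3:**
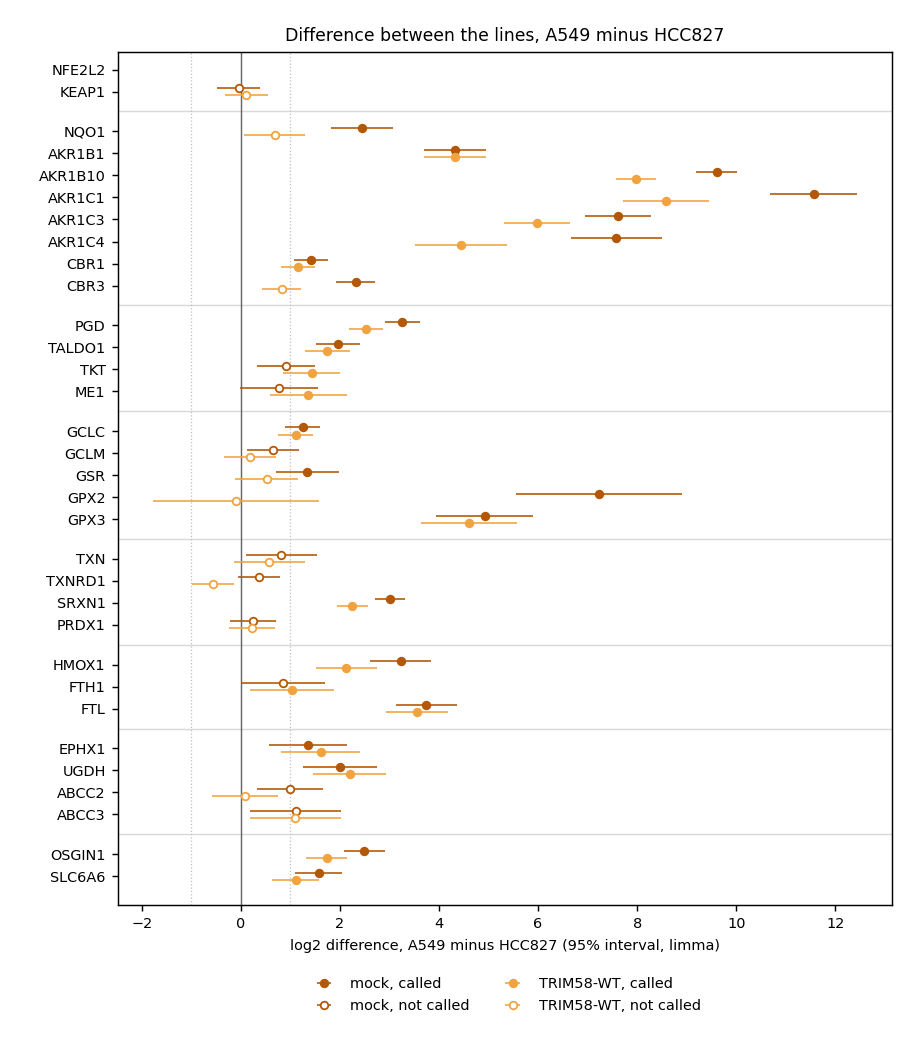
Difference between the lines for each member tested, as log2 level in A549 minus that in HCC827, in the mock groups (dark) and the TRIM58-WT groups (light). Points are limma differences with 95% intervals, filled where the member was called, and dotted lines mark a 2-fold difference. For AKR1C1, AKR1C4 and GPX3, which were not well above background in HCC827 mock, the measured difference is drawn. GPX2 lies at 7.22 in mock and at -0.09, with a wide interval, in TRIM58-WT.

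The question the study put to its A549 arrays was what TRIM58-WT changed in these cells. Within A549, 8 of the 31 members tested were called, all lower in the TRIM58-WT group, against 7.93% of all genes tested called in either direction, 4.06% called lower and 3.87% called higher. GPX2, counted among the 8, passed the filter on dim probes through A549 mock alone. With probes required to be well above background on every array compared, GPX2 was not tested. Of 29 members 7 were then called, all lower, against 5.08% of all genes. The comparison shares its mock arrays with that between the mock groups, so the values of one are not independent of the other. The 8 members called lower in the main fit were GPX2, AKR1C4, AKR1C1, AKR1C3, NQO1, ABCC2, HMOX1 and AKR1B10. The difference was below 0 for 26 members and above 0 for 5, with a median of -0.48 against 0.03 over all genes tested. The TRIM58-WT arrays lay wholly below the mock arrays for 18 members (17.0% of all genes) and wholly above for 0 (16.9% of all genes).

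This count rested on single replicates. GPX2 alone was called, a count of 1, when mock replicate 1 or 2 or TRIM58-WT replicate 2 or 3 was left out, when the latter pair was averaged, and with no filter on dim probes. Calls over all genes fell in the same settings, from 7.93% to between 2.1% and 2.58% with these replicates left out, 2.34% with the pair averaged and 2.27% with no filter. The count of members was 7 without mock replicate 3 (13.5% of all genes) or without TRIM58-WT replicate 1 (9.49%). It was 0 by a Welch test with Benjamini-Hochberg adjustment, which called 0.188% of all genes. In that test 15 members had an unadjusted p under 0.05, as in limma. The paper names the Welch test for comparing 2 groups in general and names no test for its expression arrays. No called member changed sign in any setting.

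GPX2 moved furthest. It read 7.03, 7.03, 7.16 and 5.68 on A549 mock arrays 1-1, 1-2, 2 and 3 and 0.12, -2.22 and -2.25 in TRIM58-WT, where it was well above background on 2 of 3 arrays. The lowest mock array, replicate 3, lay far above the highest TRIM58-WT array, replicate 1. The difference was -8.07 (SE 0.74, limma, adjusted p = 0.00311), and with single replicates left out it lay between -8.86 and -7.68. Its highest adjusted p over all alternatives was 0.1005, in the Welch test, where its call was lost.

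The carbonyl-reducing enzymes were the role with the most calls, 5 of 8. AKR1C1 read 7.32, 7.64, 7.91 and 7.91 on the mock arrays, against 6.56, 5.32 and 5.27 with TRIM58-WT, a difference of -2.05 (SE 0.38, limma, adjusted p = 0.0256). TRIM58-WT replicate 1 stood nearest to mock, and the groups did not overlap. A dimmer AKR1C1 probe gave -2.04 and did not pass (adjusted p = 0.0598). AKR1C3 read 7.90, 8.37, 8.36 and 8.39 against 7.26, 6.30 and 6.39, a difference of -1.65 (SE 0.29, adjusted p = 0.0218). AKR1C4 read 2.14, 2.33, 2.42 and 2.11 against 0.81, -0.62 and -0.59, a difference of -2.39 (SE 0.40, adjusted p = 0.0202). In both, as in AKR1C1, TRIM58-WT replicate 1 lay between mock and the other TRIM58-WT replicates. A dimmer AKR1C4 probe, well above background on 3 mock arrays and 0 TRIM58-WT arrays, was not tested. At that probe the groups overlapped, with mock replicate 3 at -4.14 and TRIM58-WT replicate 1 at -3.82.

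AKR1B10 read 8.90, 8.69, 8.68 and 8.85 in A549 mock and 7.86, 7.51 and 7.48 in TRIM58-WT, with no overlap and a difference of -1.16 (SE 0.17, limma, adjusted p = 0.0137). NQO1 read 2.19, 2.54, 2.42 and 1.80 against 0.90, 0.52 and 0.61, with no overlap and a difference of -1.52 (SE 0.23, adjusted p = 0.0138). AKR1B1 gave -0.01 (95% interval -0.65 to 0.64), so the 2 AKR1B genes, both far higher in A549 than in HCC827, gave different values here. CBR3 gave -0.90 and passed the adjusted p (0.0256) at under 2-fold, and CBR1 gave -0.28 (adjusted p = 0.312).

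Outside that role, HMOX1 read 5.72, 5.54, 6.004 and 6.59 in A549 mock and 4.88, 4.91 and 4.79 in TRIM58-WT, a difference of -1.21 (SE 0.26, limma, adjusted p = 0.0402). Its groups did not overlap, but its call was lost whenever any 1 replicate was left out, at differences of -1.43 to -0.95. The export pump ABCC2 read 4.10, 4.13, 3.99 and 3.26 against 2.70, 2.12 and 2.11, with no overlap and a difference of -1.47 (SE 0.30, adjusted p = 0.0328). SRXN1 read 5.94, 5.82, 5.92 and 5.83 against 5.07, 5.12 and 5.14, with SDs of 0.05 and 0.04. The SRXN1 difference of -0.77 passed the adjusted p (0.0258) and was under 2-fold.

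The remaining members were not called at their brightest probe. The NADPH genes gave -0.65 for PGD (adjusted p = 0.0541), -0.29 for TALDO1, 0.24 for TKT and 0.25 for ME1. GCLC, GCLM and GPX3 gave -0.41, -0.16 and -0.48, with adjusted p from 0.177 to 0.720. GSR gave -0.83 (adjusted p = 0.122) at its brightest probe and -1.23 (adjusted p = 0.0117) at a dimmer one, so its 2 probes differ in the call. The ferritins gave 0.21 for FTH1 (95% interval -0.70 to 1.13) and 0.19 for FTL (-0.47 to 0.85). TXNRD1 gave -0.75 (adjusted p = 0.0589), TXN -0.62, PRDX1 -0.20, OSGIN1 -0.56, UGDH -0.40, ABCC3 -0.29, EPHX1 -0.29 and SLC6A6 -0.06, none of which passed.

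**Figure D4:**
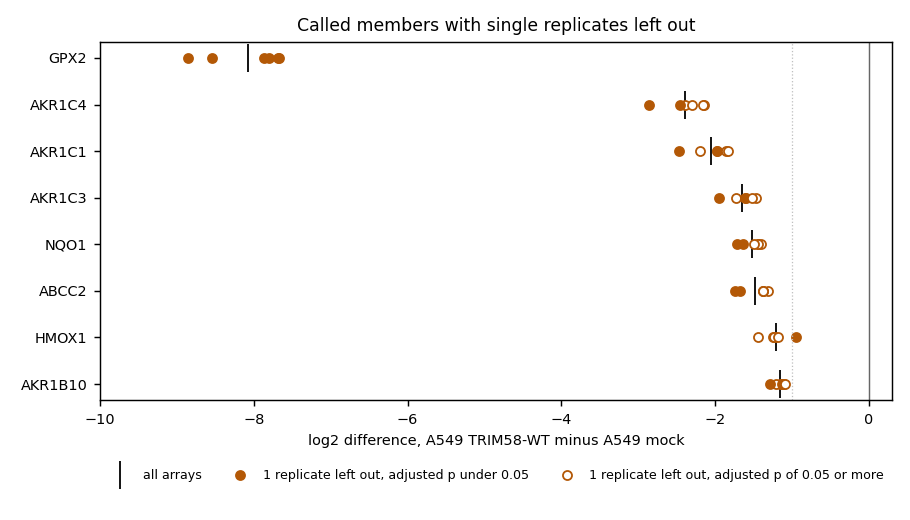
The 8 members called in A549, with the log2 difference of TRIM58-WT minus mock from all arrays (vertical bar) and with each of the 6 replicates left out in turn (circles, filled where the limma adjusted p was under 0.05). The dotted line marks a 2-fold lower level. GPX2 stays between -8.86 and -7.68 with every circle filled, and each of the other 7 genes has open circles.

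Slide, which the array headers give, did not separate the A549 groups, since each slide held arrays of both. On slide 1, which held TRIM58-WT replicate 1 and mock arrays 1-1 and 2, 26 of the 31 differences were below 0, with a median of -0.60. On slide 2, which held TRIM58-WT replicates 2 and 3 and mock arrays 1-2 and 3, 26 were below 0, with a median of -0.48. GPX2 gave -6.97 on slide 1 and -8.59 on slide 2, NQO1 -1.41 and -1.61, AKR1C1 -1.05 and -2.48, and AKR1C4 -1.47 and -2.82. With slide as a block 8 members were called, against 11.9% of all genes. That fit counted A549 mock arrays 1-1 and 1-2, from the same control cells, as separate replicates. Counting them so without the slide block also called 8 members, and more of all genes than the main fit. The slide block was not run with these arrays averaged, so its count does not show the effect of slide alone. From slide 2 alone, an alternative chosen after seeing the data, 5 members were called, against 4.21% of all genes. Slide 1 held 1 TRIM58-WT replicate, so calls from it alone are not counted.

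Cell-type markers moved between the same A549 groups. Of 10 epithelial genes, 8 were well above background on every mock array and 4 on every TRIM58-WT array, where KRT19, CLDN4, CLDN7 and CEACAM6 were above it on none. ESRP1 was above it on no A549 array, mock or TRIM58-WT. The summed linear epithelial level, in units of the 75th percentile, was 1673 to 2323 in mock and 1096 to 1720.5 in TRIM58-WT. KRT19, a keratin of glandular epithelium, was at least 723-fold lower, and EPCAM fell by 4.88 on the log2 scale (adjusted p = 0.0117). Of 10 fibroblast and mesenchymal genes the summed level was 27.3 to 181 in mock and 94.9 to 368 in TRIM58-WT, while COL1A2, COL3A1, PDGFRB, DCN, THY1 and FAP were above background on no A549 array. Of 8 lung lineage genes 2 were above background on every array of either group, and NKX2-1, SFTPB and SFTPA1 on none. All 4 endothelial genes were above background on no array. For the lung lineage the summed level was 10.1 to 11.7 in mock and 9.20 to 10.3 in TRIM58-WT. The part of these shifts in the fall of the members was not tested, and in bulk RNA fewer cells expressing a gene and less RNA per cell cannot be told apart.

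In HCC827 none of the members was called. limma called 0 of the 28 members tested, against 1.07% of all genes called in either direction, 0.329% called higher and 0.74% called lower, and 5 members had an unadjusted p under 0.05. NFE2L2, AKR1C1, AKR1C4 and GPX3 failed the filter on dim probes and were not tested. The median difference was -0.02, against 0.01 over all genes tested, and the differences ran from -0.76 for GPX2 to 0.59 for CBR3. The TRIM58-WT arrays lay wholly above the mock arrays for 7 members (30.6% of all genes) and wholly below for 7 (28.6%). The Welch test called 0 of all 12165 genes, so its count of 0 members says nothing about them. In that test 1 member had an unadjusted p under 0.05.

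The 5 members at an unadjusted p under 0.05, named after their values were seen, were AKR1B10 and CBR3, which were higher, and GPX2, EPHX1 and ABCC2, which were lower. AKR1B10 read -0.81 and -0.84 in HCC827 mock and -0.50 and -0.21 in TRIM58-WT, a difference of 0.47 (95% interval 0.04 to 0.90, limma, adjusted p = 0.219). CBR3 gave 0.59 (0.17 to 1.01, adjusted p = 0.159), and GPX2 gave -0.76 (-1.35 to -0.17, adjusted p = 0.182). EPHX1 gave -0.55 (-0.95 to -0.15, adjusted p = 0.166) and ABCC2 -0.57 (-0.93 to -0.20, adjusted p = 0.141). None passed after adjustment. NQO1 gave 0.25 (-0.47 to 0.97), HMOX1 -0.11 (-0.59 to 0.37), AKR1C3 -0.01 (-0.48 to 0.46) and SRXN1 -0.00 (-0.35 to 0.34). Each of these intervals lies within a 2-fold change in either direction.

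**Figure D5:**
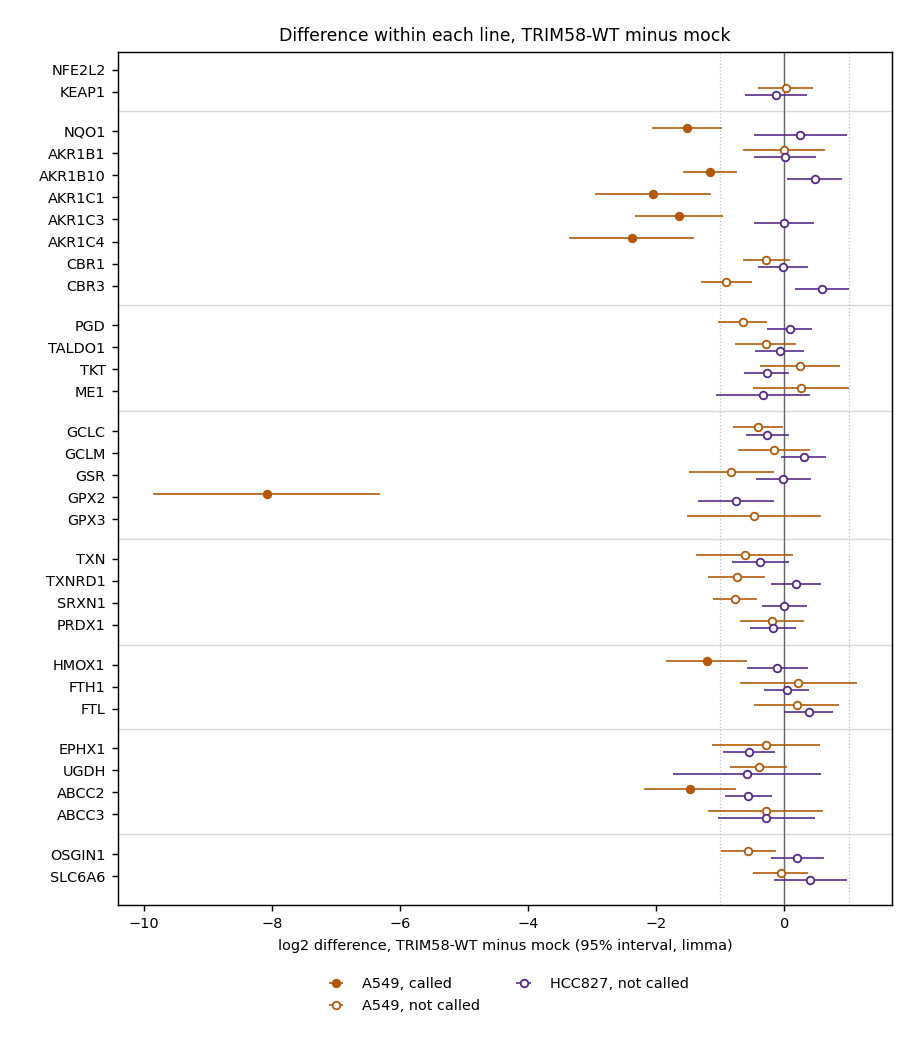
Difference of TRIM58-WT minus mock for each member tested, in A549 and in HCC827. Points are limma log2 differences with 95% intervals, filled where the member was called, and dotted lines mark a 2-fold difference. The 8 filled points are all A549 and all to the left of 0, with GPX2 at -8.07, and every HCC827 point is open.

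Whether the change with TRIM58-WT differed between the lines was tested directly with an interaction term, called at adjusted p alone. Of the 31 members tested 6 were called, all with a lower change in A549, against 4.61% of all genes called in either direction, 2.5% called lower and 2.11% called higher. GPX2 gave -8.07 in A549 and -0.76 in HCC827, a difference between the changes of -7.32 (SE 1.04, limma, adjusted p = 0.00897). AKR1C4 (-3.13) and AKR1C1 (-2.97) also passed, but AKR1C4 was well above background on 0 of the 4 HCC827 arrays and AKR1C1 on 1, so no change in HCC827 was measured and these values are not read as a difference between the lines. NQO1 gave -1.52 in A549 and 0.25 in HCC827, a difference of -1.77 (SE 0.39, adjusted p = 0.0450). AKR1B10 gave -1.16 and 0.47, a difference of -1.63 (SE 0.25, adjusted p = 0.0131), and CBR3 by -0.90 and 0.59, a difference of -1.49 (SE 0.24, adjusted p = 0.0158). AKR1C3 (-1.64, adjusted p = 0.0711), HMOX1 (-1.10, adjusted p = 0.167) and ABCC2 (-0.91, adjusted p = 0.291) were called within A549 without passing this test. A dimmer GSR probe passed (-1.66, adjusted p = 0.0295), while the brightest did not. A dimmer AKR1B10 probe passed (-1.84, adjusted p = 0.0164), and a dimmer AKR1C1 probe did not (-2.17, adjusted p = 0.282). With probes required to be well above background on all arrays, AKR1B10, CBR3 and NQO1 were called and GPX2 was not tested. The count was 0 without HCC827 mock replicate 1 and 1 without HCC827 mock replicate 2. It was 2 without A549 mock replicate 1, HCC827 TRIM58-WT replicate 1 or HCC827 TRIM58-WT replicate 2, and 3 without A549 mock replicate 2 or A549 TRIM58-WT replicate 2 or 3. Over all genes 1.28% to 2.52% were called in these settings. The count rose to 8 without A549 mock replicate 3 (12.4% of all genes) and to 7 without A549 TRIM58-WT replicate 1 (8.41%).

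Other genes of the pathway, from lists that name no member, were read in the same fits. Of 18 partners and controllers of NRF2, 17 were tested between the mock groups, with 4 called higher in A549 and 1 lower and a median of 0.42, which is no larger a share than the 31.9% of all genes called. CREBBP, a coactivator, differed by 2.32, the small MAF genes MAFK and MAFG by 1.97 and 1.32, SQSTM1, which binds KEAP1, by 1.41, and the related factor NFE2L3 by -2.49. Between the TRIM58-WT groups 3 were higher and 1 lower, CREBBP (2.39), MAFK (1.68) and SQSTM1 (1.06) against MAFF (-1.79). Over all genes 16.2% were called higher there and 17.5% lower. Within A549 0 of 16 were called (7.93% of all genes), within HCC827 0 of 17 (1.07%), and the interaction term called 0 of 17 (4.61%). At these shares a count of 0 among so few genes says nothing about them.

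Of 43 further known NRF2 targets, 39 had a named probe. Between the mock groups 22 of 34 tested were called higher in A549 and 1 lower, with a median of 1.70, against 15.4% of all genes called higher and 16.5% lower. ALDH3A1 and ALDH1A1, aldehyde dehydrogenases, were at least 1050.4-fold and at least 1843-fold higher, the nuclear receptor gene NR0B1 at least 84.8-fold, AIFM2 at least 93.6-fold and the glucuronosyltransferase UGT1A6 at least 23.1-fold, none being well above background in HCC827 mock. These genes passed the filter on dim probes through A549 alone and are counted among the 22. Between the TRIM58-WT groups 19 of 33 were higher and 4 lower, among the latter TXNIP (-6.09), against 16.2% and 17.5% of all genes. Within A549 2 of 33 were called, both lower, against 7.93% of all genes called in either direction and 4.06% called lower. The difference was below 0 for 23 and above 0 for 10, with a median of -0.21 against 0.03 over all genes tested. CYP4F11, a cytochrome P450, was at least 15.6-fold lower (adjusted p = 0.000584), and ALDH3A1 fell by 4.10 on the log2 scale (adjusted p = 0.00238). ALDH1A1 gave 0.12 and NR0B1 0.06 within A549, with adjusted p of 0.829 and 0.927. Within HCC827 0 of 26 were called, against 1.07% of all genes. The interaction term of limma called 3 of 34, against 4.61% of all genes. They were BLVRA, a biliverdin reductase (-1.02, adjusted p = 0.0359), CYP4F11 and ALDH3A1. CYP4F11 and ALDH3A1 were well above background on 0 HCC827 arrays and had no measured change there.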

How the data were processed

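RNA had been labelled with Cy3, hybridised to Agilent human expression arrays and scanned. The deposited array files hold an intensity for each spot, which the authors had background-subtracted with Agilent Feature Extraction (11.5.1.1 in the file headers, 10.7 in the submitters' processing notes). A table of log2 values was deposited as well. Its values lay within 0.01 of the log2 intensity less the array's 75th percentile and a baseline for each probe, for 95.5% of values. Its column medians were -0.12 to 0.46, and its scale, centring and normalization are not stated and were inferred.

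Outlier spots were left out and no spot was saturated. Spots of a probe were averaged, and 27241 of 42405 probes were named through RefSeq accessions. log2 intensity minus the 75th percentile was fitted with limma 3.58.1 (R 4.3.3), over the 2 groups compared within a line and over all 4 groups otherwise, with Benjamini-Hochberg adjustment over all probes tested. A probe counted as well above background where over 0.5 of its spots were flagged so. Bounds used the higher of the lowest signal well above background on the array and the probe's own signal. The fits were tested on simulated data.

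The members, lists and motifs were chosen with earlier results of these data known. Full statistics were given for the regulators and, per comparison, the 10 called members with the largest differences, and for other lists the 5 largest called. Samples were not paired by replicate number in the main fits. Deviations of same-numbered A549 samples correlated at 0.43, -0.38 and 0.45, without a common sign, and those of HCC827 at 0.07. The number of arrays limits the precision. Alternatives covered the filter, normalization, background, table, probe, outliers, samples fitted, averaging, slide, replicate number, test and threshold, and leaving out each replicate. The immune marker list is not reported here.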

Additional observations from a re-analysis of the deposited data

Results flagged for a closer look

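The interaction term of limma, which compares the change with TRIM58-WT between the lines, passed for 6 members. The change in A549 minus that in HCC827 was -7.32 for GPX2, -3.13 for AKR1C4, -2.97 for AKR1C1, -1.77 for NQO1, -1.63 for AKR1B10 and -1.49 for CBR3, each on the log2 scale and each negative in every setting run. GPX2 was called in 22 of 23 settings, losing its call without HCC827 mock replicate 1, and AKR1B10 in 20 of 24. CBR3 was called in 18 of 24, AKR1C4 in 14 of 23, AKR1C1 in 11 of 23 and NQO1 in 9 of 24. These counts include the threshold on adjusted p alone, which repeats the main rule for this term and cannot lose a call. They also include slide 1 alone, which held 1 A549 TRIM58-WT replicate. AKR1C4 was well above background on 0 of the 4 HCC827 arrays and AKR1C1 on 1, so their values rest on background in HCC827 and are not read as a difference between the lines.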

How the results depend on the processing

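Between the mock groups 20 of the 21 members called stayed called in every setting that tested them, and between the TRIM58-WT groups 12 of 20, with the median shift and with normexp each leaving 14. Every called member kept its sign in every setting. Some of these settings could not have changed a result. A threshold on adjusted p alone cannot lose a call. Between the lines, leaving out a replicate of a group not compared cannot move a difference or its sign. In A549 the count of 8 (7.93% of all genes called) was 1 with no filter on dim probes (2.27%) and 4 with quantile normalization (7.42%). It was 1 with TRIM58-WT replicates 2 and 3 averaged (2.34%), 5 on slide 2 (4.21%) and 0 by the Welch test (0.188%). With single replicates left out it was 1 to 7 (2.1% to 13.5%). The count of 6 by the interaction term was 3 with dim probes filtered on all arrays, 3 with quantile normalization, 3 with TRIM58-WT replicates 2 and 3 averaged, and 0 to 8 with single replicates left out (1.28% to 12.4% of all genes). In HCC827, limma called 0 of all genes without mock replicate 1 or 2, so a count of 0 members there says nothing about stability. Between the TRIM58-WT groups the median shift called 37.2% of all genes and normexp 18.9%, against 33.7%. The interaction term called 3.11% of all genes with dim probes filtered on all arrays and 4.91% with quantile normalization. With TRIM58-WT replicates 2 and 3 averaged it called 2.5%, against 4.61%. The causes of these shifts were not tested.

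The main fits did not pair samples by replicate number. The fit with the replicate block called 6 members in A549 (7.61% of all genes) and 0 in HCC827, where it called 0 of all genes. For the difference between the lines it called 5 (4.5% of all genes). Shifting arrays by their median moved the median of all genes by -0.37 within A549 and by -0.42 between the TRIM58-WT groups. The members' median relative to it, -0.51 and 1.41, could not change, since such a shift moves all genes of a comparison alike. Under that shift 209 genes were called higher and 639 lower in A549, against 433 and 454, and 1257 higher and 3362 lower between the TRIM58-WT groups, against 2008 and 2170. Signal over background limits NFE2L2 on all arrays and AKR1C1, AKR1C4 and GPX3 in HCC827.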
